A study of Oryzias latipes with 6 samples.

Results

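The aryl hydrocarbon receptor (AHR) pathway was described here through the genes that carry it: the receptors, their ARNT partners, the AHR repressor and tiparp. Members were all genes of the authors' deposited table whose symbol, in lower case and without its copy suffix, began with ahr and a digit or with ahrr or tiparp, or was arnt with at most a digit and a letter a or b after it. This rule used names alone and found 7 of the 20459 genes: ahr2 (2 of 2), ahr2 (1 of 2), ahr1b (2 of 2), arnt, arnt2, ahrrb and tiparp. The arntl genes were not included, and a gene named plainly ahr lay outside the rule. Of the 7 members, 3 were tested by the authors and 4 were not.

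The tissue was the axial skeleton with adjoining muscle, fat and dermis of Japanese medaka (Oryzias latipes, strain Orange-red Hd-dR) larvae at 20 days post fertilization. The TCDD group, 3 libraries, spent 1 h, starting near 4 hours after fertilization, in a bath of 0.3 nM TCDD, a persistent dioxin and AHR ligand. The DMSO group, 3 libraries, was bathed alike in 0.1% DMSO, the solvent. Each library came from a pool of 15 to 25 fish, so that no value belongs to 1 animal, and the labels do not say whether the pools came from separate clutches. The deposited table holds 1 FPKM value per gene and group (FPKM is a level scaled by gene length and library size), so there is no spread between libraries, the depth per library is unknown, and the only test is that of the authors.

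In the resting cell AHR is held in the cytosol by the chaperone HSP90. On binding a ligand such as TCDD it moves to the nucleus, pairs with ARNT, and the pair activates genes with its response element, CYP1A foremost. AHRR resembles AHR but does not activate transcription and competes for ARNT, while TIPARP, an enzyme that attaches single ADP-ribose units to proteins, modifies AHR and dampens it, and both genes are themselves induced by AHR. Fish carry AHR genes of an AHR1 and an AHR2 lineage, and in zebrafish the AHR2 protein is the one through which TCDD exerts most of its developmental toxicity.

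At 20 days post fertilization, long after the bath, a receptor, the repressor and tiparp were all higher in TCDD fish than in DMSO fish, whereas the ARNT partners, which were not tested, had values within 1.17-fold of each other in the 2 groups. All 3 tested members passed q 0.05 as higher in TCDD, and 0 as lower, in the authors' deposited table. Among the 3286 genes tested there, 18.2% passed that threshold, 10.7% higher and 7.46% lower in TCDD. Log2 fold changes, TCDD over DMSO throughout, had a median of 1.71 for the 3 tested members and 0.05 for all tested genes. Of these 3, ahrrb had 2.95 FPKM in DMSO fish, under the lowest mean of both groups among tested genes, 13.7 FPKM. It reached the level of tested genes only through its TCDD value, so the count of members called higher is not independent of what was tested. The remaining members, ahr2 (1 of 2), ahr1b (2 of 2), arnt and arnt2, carry no test, so their values are given as levels only.

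**Figure D1:**
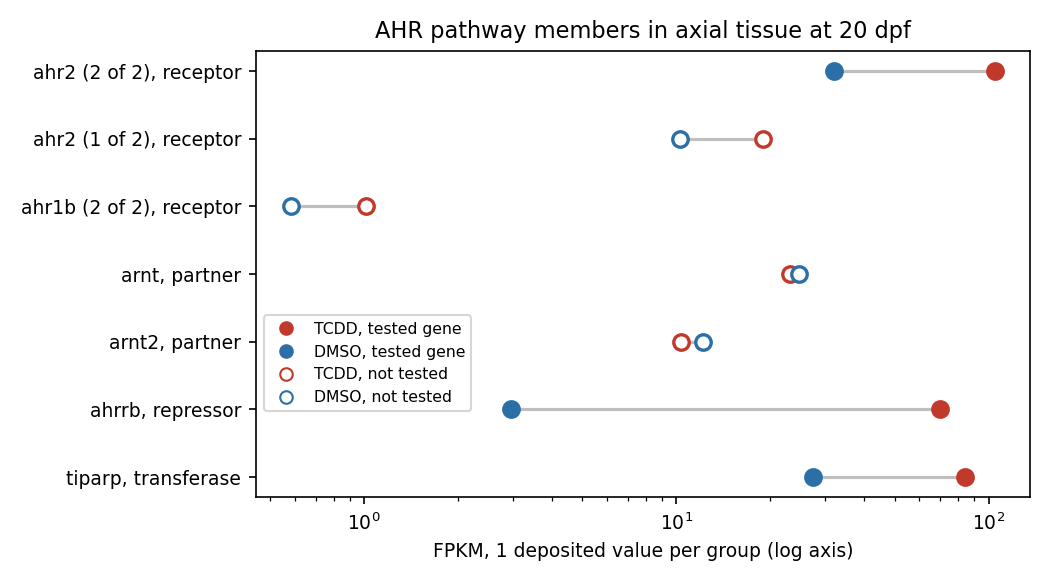
FPKM of each member on a log axis, 1 deposited value per group, with TCDD in red and DMSO in blue; filled circles are genes the authors tested and open circles genes they did not. The red circle lies right of the blue for the 3 tested members, farthest for ahrrb (69.9 FPKM in TCDD fish and 2.95 FPKM in DMSO fish), and the circles of arnt nearly coincide (23.1 FPKM in TCDD fish and 24.7 FPKM in DMSO fish).

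Among the receptors, ahr2 (2 of 2) was the most abundant in each group. In the authors' deposited table its level was 105 FPKM in TCDD fish and 31.9 FPKM in DMSO fish. It rose 3.28-fold in TCDD (log2 fold change 1.71, q = 0.00105 in the authors' deposited table). A larger factor was found in 157 of the 3286 tested genes, or 4.78%, whether called or not. With the rise, ahr2 (2 of 2) ranked 875 of all 20459 genes by FPKM in TCDD fish, against rank 2734 in DMSO fish. The TCDD level alone thus placed this receptor above 95.7% of all genes, against 86.6% in DMSO fish.

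The second copy, ahr2 (1 of 2), had 18.9 FPKM in TCDD fish and 10.3 FPKM in DMSO fish in the authors' deposited table. Its value was higher in TCDD by 1.84-fold, without a test. The ahr1b gene, of the AHR1 lineage by its symbol, had the lowest values of the 7 members, with 1.01 FPKM in TCDD fish and 0.583 FPKM in DMSO fish. At such levels a fold change may rest on few reads, and none is read from ahr1b here. The values of the tested ahr2 (2 of 2) and the untested ahr2 (1 of 2) lay higher in TCDD fish. Whether the copies of ahr2 differed from each other in their change was not tested.

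Summed over the 3 receptor genes, the level was 124 FPKM in TCDD fish and 42.7 FPKM in DMSO fish. The ahr2 (2 of 2) gene made up 84.0% of that sum in TCDD fish and 74.6% in DMSO fish. The ratio of ahr2 (2 of 2) to ahr2 (1 of 2), both in FPKM, was 5.53 in TCDD fish and 3.11 in DMSO fish. Most of the receptor level in this tissue thus came from 1 gene in each group.

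The receptor genes lie side by side in 2 pairs. Coordinates are those of the authors' deposited table, on a genome build that no source used here names. On chromosome 21, ahr2 (2 of 2) (ENSORLG00000018196) spans 30476899 to 30489946, and ahr1b (2 of 2) (ENSORLG00000018199) spans 30502291 to 30526859, 12.3 kb further on. On chromosome 2, ahr2 (1 of 2) (ENSORLG00000000135) spans 6548195 to 6597819, and the gene named ahr (ENSORLG00000000137) spans 6604750 to 6639251, a gap of 6.93 kb.

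In each pair the ahr2 copy had the higher FPKM and its neighbour the lower. The ahr gene, outside the rule and untested, had 5.55 FPKM in TCDD fish and 2.75 FPKM in DMSO fish in the authors' deposited table. On the other side of ahr2 (2 of 2), ndufa10, a subunit gene of respiratory complex I, had 40.4 FPKM in TCDD fish and 69.4 FPKM in DMSO fish and did not pass (q = 0.0979, authors' deposited table). Beyond ahr1b, kalrna, which encodes a guanine nucleotide exchange factor, had 4.06 FPKM in TCDD fish and 3.38 FPKM in DMSO fish and was not tested. No locus of the receptor genes overlapped another gene of the table, although reads that fit several receptor copies could have been split between them.

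**Figure D2:**
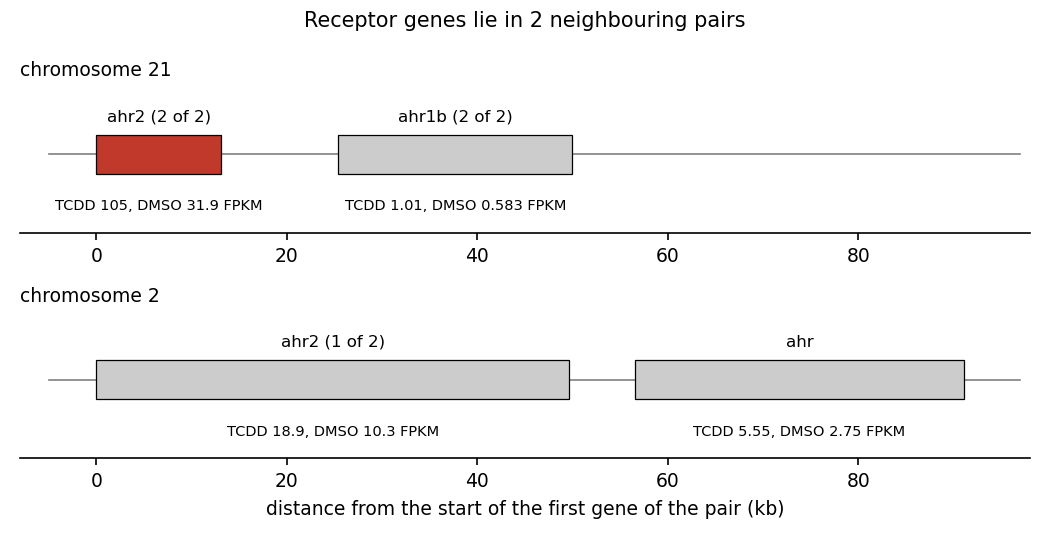
The receptor pairs on chromosomes 21 and 2, drawn to scale as boxes by distance in kb from the start of the first gene of each pair, with the FPKM of each group below each box. The red box is the gene that was tested and called higher in TCDD, ahr2 (2 of 2), at 105 FPKM in TCDD fish and 31.9 FPKM in DMSO fish; the grey boxes were not tested.

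The partner genes had nearly equal values in the groups. In the authors' deposited table arnt, which encodes the obligate nuclear partner of AHR, had 23.1 FPKM in TCDD fish and 24.7 FPKM in DMSO fish. Its paralogue arnt2 had 10.3 FPKM in TCDD fish and 12.1 FPKM in DMSO fish. Neither was tested, and the log2 fold changes of -0.10 and -0.23 turned to 0.15 and 0.01 when the columns were scaled to equal totals, so no direction is given for either. Their sum was 33.4 FPKM in TCDD fish and 36.8 FPKM in DMSO fish, and arnt supplied 69.1% of it in TCDD fish and 67.0% in DMSO fish.

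The value of arnt is uncertain. Its locus in the table, chromosome 16 from 15980219 to 16071194 (ENSORLG00000010551), is shared with 5 other genes, namely cers2b, setdb1a, cyp11b, celf3b and CLK3, all given the same span and none tested. Reads from that span may be divided among them. Within it, the values of the other genes differed between groups in either direction: cers2b, a ceramide synthase gene, had 14.4 FPKM in TCDD fish and 6.68 FPKM in DMSO fish, and CLK3, a splicing kinase gene, had 1.21 FPKM in TCDD fish and 15.2 FPKM in DMSO fish (authors' deposited table). The arnt2 gene (ENSORLG00000019479) lies on scaffold3434 from 958 to 6086, a scaffold on which the table lists no other gene.

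Against the partners, the receptors stood higher in TCDD fish. The ratio of summed receptor to summed partner FPKM was 3.73 in TCDD fish and 1.16 in DMSO fish. The ratio of ahr2 (2 of 2) to arnt alone was 4.53 in TCDD fish and 1.29 in DMSO fish. These ratios compare levels per gene length within a group, so a common scaling of a column does not alter them, and they have no error because there is 1 value per group.

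**Figure D3:**
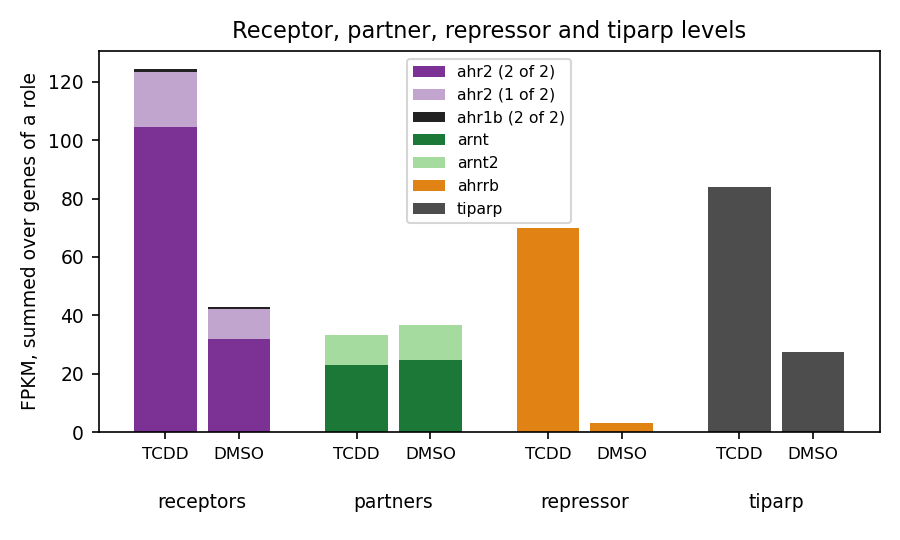
FPKM summed over the genes of each role, as stacked bars with TCDD left of DMSO and the genes in different colours. The receptor bars reach 124 and 42.7 FPKM in TCDD and DMSO, the partner bars 33.4 and 36.8 FPKM, the repressor 69.9 and 2.95 FPKM, and tiparp 84.1 and 27.4 FPKM.

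The repressor showed the widest difference of the 7 members. In the authors' deposited table ahrrb had 69.9 FPKM in TCDD fish and 2.95 FPKM in DMSO fish. It rose 23.7-fold (log2 fold change 4.57, q = 0.0018 in the authors' deposited table). In DMSO fish ahrrb was thus a weakly expressed gene, above 39.2% of all genes, whereas in TCDD fish it stood above 93.6%.

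A larger factor than that of ahrrb was found in 24 of the 3286 tested genes, 13 of them listed at 0 in DMSO fish. Of these 24, 9 passed q 0.05 in the authors' deposited table, so 15 larger factors went uncalled. Of the 27 tested genes whose DMSO value was no higher than that of ahrrb, itself included, 9 passed, against 18.2% of all tested genes. All 27 reached the lowest tested mean of 13.7 FPKM only through their TCDD values. Their direction was thus fixed by what was tested, and the count is a description only. The p-value of ahrrb in the authors' test was 0.0001, against 5e-05 for ahr2 (2 of 2). That was the smallest p-value in the authors' deposited table, and 157 tested genes shared it. The deposited test statistic was 3.88 for ahrrb and 3.39 for ahr2 (2 of 2).

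Repressor and receptor stood closer in level in TCDD fish than in DMSO fish. The ratio of ahrrb to ahr2 (2 of 2) in FPKM was 0.668 in TCDD fish and 0.0925 in DMSO fish. The ratio of ahrrb to the summed receptors was 0.561 in TCDD fish and 0.069 in DMSO fish. Set against the summed partners, for which AHRR competes, ahrrb stood at a ratio of 2.09 in TCDD fish and 0.0801 in DMSO fish.

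The ahrrb gene (ENSORLG00000005309) spans 8289180 to 8356828 on chromosome 20 and overlaps no other gene of the table. Its flanking genes were low in each group: pigm, of GPI anchor synthesis, had 8.97 FPKM in TCDD fish and 5.36 FPKM in DMSO fish, and ANKS6 had 0.844 FPKM in TCDD fish and 3.30 FPKM in DMSO fish, both untested in the authors' deposited table.

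The ADP-ribosyltransferase gene tiparp also rose, by a factor close to that of ahr2 (2 of 2); the difference between them was not tested. In the authors' deposited table it had 84.1 FPKM in TCDD fish and 27.4 FPKM in DMSO fish. The rise was 3.07-fold (log2 fold change 1.62, q = 0.0018 in the authors' deposited table), and 186 tested genes, 5.66%, had a larger factor, called or not. The ratio of tiparp to ahr2 (2 of 2) in FPKM was 0.804 in TCDD fish and 0.859 in DMSO fish. By level, tiparp ranked 1088 of all genes in TCDD fish and 3149 in DMSO fish.

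The tiparp gene (ENSORLG00000012508) spans 24184979 to 24193622 on chromosome 13 with no overlapping gene. An unnamed gene 7.32 kb further on had 85.8 FPKM in TCDD fish and 40.0 FPKM in DMSO fish and did not pass (q = 0.0779, authors' deposited table). Of the 7 members, 3 (ahrrb as ahrr, arnt and tiparp) were found by symbol in the RefSeq gene table of assembly ASM223467v1, and each of the 3 had at least 1 of the same neighbours there as in the deposited table.

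In TCDD fish the members ordered by FPKM were ahr2 (2 of 2), tiparp, ahrrb, arnt, ahr2 (1 of 2), arnt2 and ahr1b (2 of 2). In DMSO fish the order was ahr2 (2 of 2), tiparp, arnt, arnt2, ahr2 (1 of 2), ahrrb and ahr1b (2 of 2). The highest, the next and the lowest places were held by the same genes, while ahrrb stood at rank 3 of the 7 in TCDD fish and at rank 6 in DMSO fish. Whether neighbours in these orders differ beyond the spread between libraries cannot be stated from 1 value per group.

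**Figure D4:**
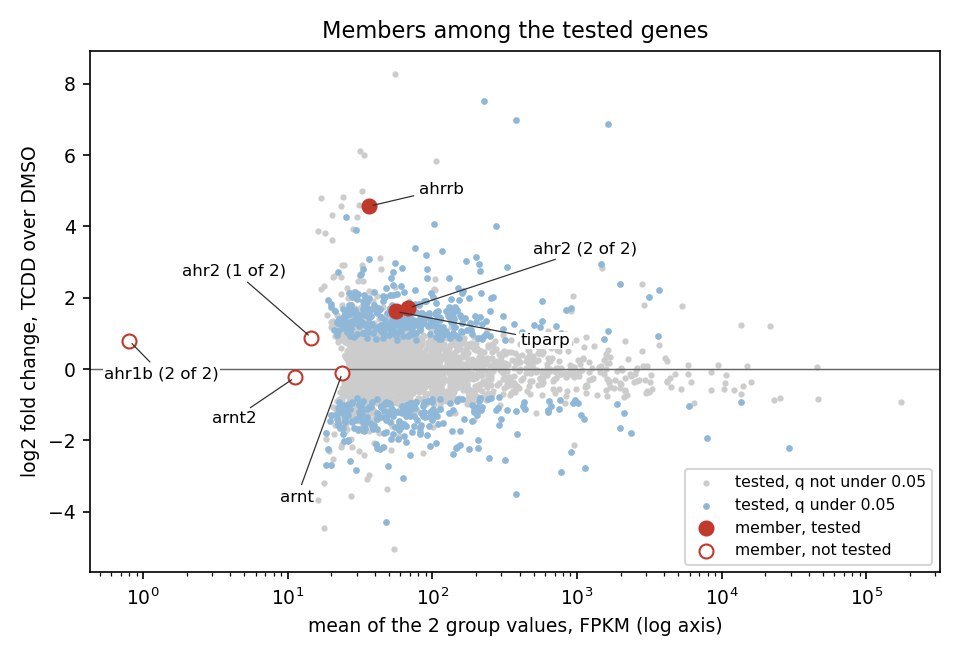
Log2 fold change of TCDD over DMSO against the mean of both group values in FPKM (log axis) for tested genes above 0 in each group, blue where q was under 0.05, with the members in red (filled where tested, open where not). The ahr2 (2 of 2) and tiparp points lie together at 1.71 and 1.62, ahrrb stands apart at 4.57, and arnt and arnt2 lie near 0.

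What was tested depended in part on level. The lowest mean of both group values among tested genes was 13.7 FPKM. Of the 4 untested members, arnt and ahr2 (1 of 2) lay above it with means of 23.9 and 14.6 FPKM, and arnt2 and ahr1b (2 of 2) lay below it with means of 11.2 and 0.799 FPKM. In all, 2743 untested genes, these 2 members included, lay at or above that lowest tested mean. Among the tested members, ahrrb had a DMSO value of 2.95 FPKM, under that mean, and reached it only through its TCDD value.

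The called genes nearest to each called member were found by their distance over the 2 group values on the log2 FPKM scale, among 535 named genes above 0 in each group. For ahr2 (2 of 2) they were fam177a1 (100.3 FPKM in TCDD fish and 33.5 FPKM in DMSO fish, distance 0.094) and hbp1 (101 FPKM in TCDD fish and 30.1 FPKM in DMSO fish, distance 0.096). For tiparp they were si:dkey-4p15.5 (79.2 FPKM in TCDD fish and 26.6 FPKM in DMSO fish, distance 0.094) and tbc1d15 (83.4 FPKM in TCDD fish and 29.4 FPKM in DMSO fish, distance 0.104). For ahrrb the nearest lay farther off: gel-b (55.2 FPKM in TCDD fish and 3.71 FPKM in DMSO fish, distance 0.475), whose locus overlaps 2 other genes, and COLL (48.1 FPKM in TCDD fish and 2.48 FPKM in DMSO fish, distance 0.593). These 6 genes passed q 0.05 in the authors' deposited table, and a likeness over only 2 values is weak.

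Other genes of the pathway were taken from 7 lists, on which 119 genes of the table stand besides the members. Of these, 25 were tested, 8 rose and 2 fell (40.0% called, against 18.2% of all tested genes). The lists were chosen with earlier results of these data known, so the 40.0% is a description only. Of the 10 calls, 5 were in the list of AHR target genes, where 4 of 6 tested genes rose and 1 fell. The median log2 fold change there was 3.13, with CYP1B, listed at 0 in DMSO fish, counted as an infinite rise. The CYP1 genes led: cyp1a, the enzyme used as the marker of AHR activity, had 3258 FPKM in TCDD fish and 27.7 FPKM in DMSO fish, and cyp1c2 had 194 FPKM in TCDD fish and 11.6 FPKM in DMSO fish (both q = 0.00105, authors' deposited table). The CYP1B gene was listed at 73.8 FPKM in TCDD fish and at 0 in DMSO fish, and the glucuronosyltransferase gene ugt1a7 had 266 FPKM in TCDD fish and 58.2 FPKM in DMSO fish (both q = 0.00105, authors' deposited table). As with ahrrb, the DMSO values of CYP1B and cyp1c2 lay under the lowest tested mean of 13.7 FPKM. Both genes reached the level of tested genes only through their TCDD values, so the share called is not independent of what was tested. The gene that fell was sox9b, a chondrocyte transcription factor that TCDD lowers in zebrafish, at 14.6 FPKM in TCDD fish and 46.6 FPKM in DMSO fish (q = 0.0053, authors' deposited table).

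None of the tested genes for cytosolic HSP90, which holds the receptor, was called higher. Of 10 genes of the receptor complex chaperone list 3 were tested, with a median log2 fold change of 0.69. Of these 3, 1 rose and 1 fell, against 18.2% of all tested genes called in either direction. The cytosolic HSP90 gene hsp90ab1, at 4510 FPKM in TCDD fish and 2802 FPKM in DMSO fish, did not pass (q = 0.131, authors' deposited table). Its value was thus higher in TCDD fish, as was that of the untested hsp90aa1.2, at 26.0 FPKM in TCDD fish and 12.1 FPKM in DMSO fish. The gene that fell, hsp90aa1.1, had 101 FPKM in TCDD fish and 277 FPKM in DMSO fish (q = 0.00105, authors' deposited table); in zebrafish its product folds myosin in muscle. The gene that rose, hsp90b1, had 193 FPKM in TCDD fish and 102 FPKM in DMSO fish (q = 0.0207, authors' deposited table), and encodes the HSP90 of the endoplasmic reticulum.

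Relatives of AHR and ARNT with the same bHLH-PAS fold were mostly too low to be tested, 1 of 10 in the authors' deposited table. That gene, hif1al, of the hypoxia-inducible factor alpha family, had 192 FPKM in TCDD fish and 147 FPKM in DMSO fish and did not pass (q = 0.37, authors' deposited table). Hypoxia-inducible factors also pair with ARNT. The hypoxia list holds target genes of these factors and some of their regulators, such as the inhibitor gene hif1an. Of its 9 tested genes 2 rose and 0 fell, against 10.7% called higher and 7.46% called lower of all tested genes. So few genes do not set the list apart from all tested genes. The median log2 fold change was 0.59, which is the value of hif1an (q = 0.319, authors' deposited table). The 2 that rose were the mitophagy receptor genes bnip3la, at 122 FPKM in TCDD fish and 45.7 FPKM in DMSO fish (q = 0.0166), and bnip3lb, at 300.1 FPKM in TCDD fish and 157 FPKM in DMSO fish (q = 0.0211), both from the authors' deposited table. The other 7 did not pass, with values in either direction. Among them igfbp1a, an IGF-binding protein gene, had 78.4 FPKM in TCDD fish and 9.01 FPKM in DMSO fish (q = 0.0562), and DDIT4 (3 of 3) had 42.4 FPKM in TCDD fish and 14.1 FPKM in DMSO fish (q = 0.0726), both from the authors' deposited table. The glycolytic gene pgk1 had 87.8 FPKM in TCDD fish and 118 FPKM in DMSO fish (q = 0.372, authors' deposited table).

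Among coactivators, corepressors and degradation factors 6 of 34 genes were tested, with a median log2 fold change of 0.35. Of these 6, 1 rose and 0 fell, against 10.7% called higher and 7.46% called lower of all tested genes. The gene that rose was relb, an NF-kB subunit that binds AHR in mammalian cells, at 55.9 FPKM in TCDD fish and 17.9 FPKM in DMSO fish (q = 0.00986, authors' deposited table). No relative of tiparp was tested: the 16 genes of the PARP and ADP-ribose removal list had at most 27.2 FPKM in TCDD fish and at most 23.1 FPKM in DMSO fish, the highest being parp16. None of the 12 genes for kynurenine and tryptophan enzymes, some of which make natural AHR ligands, was tested either, and ido1 and tdo2b were listed at 0 in each group of the authors' deposited table. The highest of the 12 was AADAT, at 23.3 FPKM in TCDD fish and 30.6 FPKM in DMSO fish, and afmid had 14.9 and 14.8 FPKM. Of the 12, 5 had higher and 4 lower values in TCDD fish, and 3 were at 0 in each group.

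**Figure D5:**
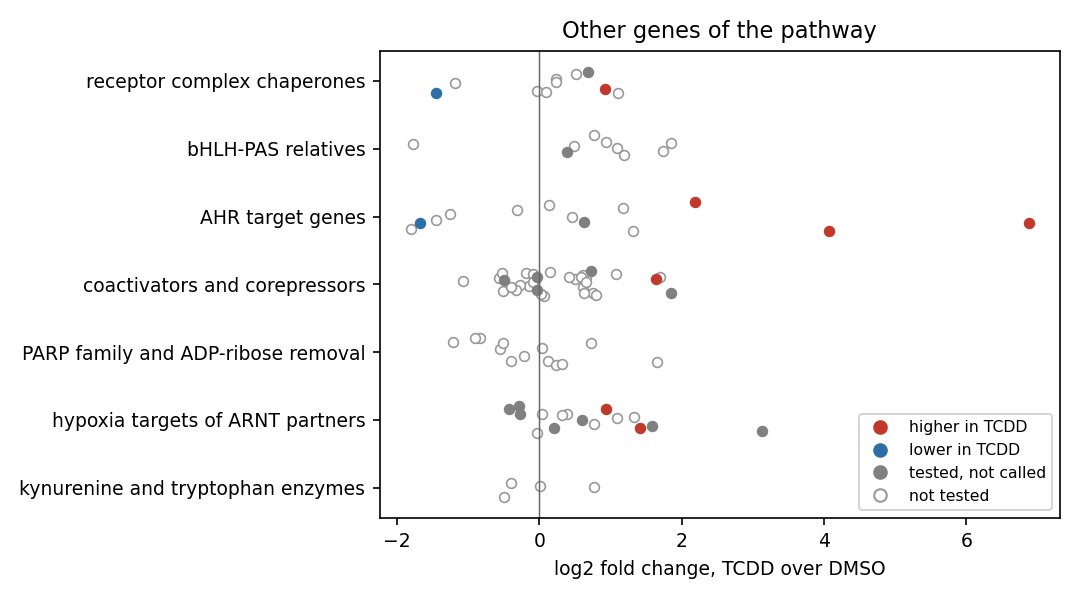
Log2 fold change of TCDD over DMSO of the other pathway genes above 0 in each group, 1 row of points per list, red where called higher, blue where called lower, grey where tested and not called, open where not tested; vertical scatter within a row has no meaning. Called points at the far right belong to the AHR target list, in which CYP1B is not drawn because it was listed at 0 in DMSO fish.

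Cell type markers differed between the groups. In bulk tissue, fewer cells of a type and less RNA per cell cannot be told apart. The summed FPKM of 9 skeletal muscle markers was 228365 in TCDD fish and 402225 in DMSO fish (0 rose, 3 fell of 9 tested). Most of that sum was pvalb1, at 119442 FPKM in TCDD fish and 228225 FPKM in DMSO fish, which did not pass (q = 0.0915, authors' deposited table). Of the 9, 7 had lower and 2 higher values in TCDD fish, the 2 being ckma (15386 and 14434 FPKM in TCDD and DMSO fish) and ckmb (46478 and 44944 FPKM). The summed FPKM of 6 osteoblast markers was 324 in TCDD fish and 1951 in DMSO fish (0 rose, 3 fell of 5 tested). Most of that sum was col10a1, at 185 FPKM in TCDD fish and 1363 FPKM in DMSO fish. Of the 6, 5 had lower values in TCDD fish and 1, alpl, a higher value (36.0 and 32.8 FPKM in TCDD and DMSO fish). The called sp7 (5.34 and 34.4 FPKM in TCDD and DMSO fish) reached the lowest tested mean of 13.7 FPKM only through its DMSO value. Cartilage and notochord markers summed to 177 FPKM in TCDD fish and 412 FPKM in DMSO fish (0 rose, 3 fell of 4 tested). Markers of 9 leukocyte genes summed to 252 FPKM in TCDD fish and 144 FPKM in DMSO fish (1 rose, 0 fell of 3 tested). The gene that rose, ptprc, had 29.9 FPKM in TCDD fish and 7.85 FPKM in DMSO fish (q = 0.00105, authors' deposited table). Its DMSO value lay under the lowest tested mean of 13.7 FPKM, so ptprc reached that level only through its TCDD value. Among all tested genes 10.7% were called higher and 7.46% lower. Of the 9 leukocyte genes, 7 had higher and 2 lower values in TCDD fish. The widest difference was that of the untested SPI1, at 43.1 FPKM in TCDD fish and 0 in DMSO fish, while mpx (2 of 2) had 32.2 and 32.7 FPKM (q = 0.968, authors' deposited table). Markers of 6 epidermis and dermis genes summed to 5852 FPKM in TCDD fish and 9080 FPKM in DMSO fish (3 rose, 1 fell of 5 tested). The lower epidermis and dermis sum in TCDD fish came from krt5, at 3926 FPKM in TCDD fish and 8037 FPKM in DMSO fish (q = 0.034, authors' deposited table). Of those 6 genes, 4 had higher and 2 lower values in TCDD fish. The part of these shifts in the levels of ahr2 (2 of 2), ahrrb and tiparp was not tested.

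Of tissues that should have been dissected away, 8 liver markers summed to 102 FPKM in TCDD fish and 27.9 FPKM in DMSO fish (0 of 1 tested called), with fabp10a, fgb and serpina1 listed at 0 in each group and the other 5 higher in TCDD fish. Of those 5, apoa1b had 42.2 FPKM in TCDD fish and 21.4 FPKM in DMSO fish (q = 0.223, authors' deposited table), and apoa2 had 37.3 FPKM in TCDD fish and 3.12 FPKM in DMSO fish, untested. The iron carrier gene tfa, also untested, had 21.0 FPKM in TCDD fish and 3.36 FPKM in DMSO fish. The loci of apoa1b and tfa each overlap 1 other gene, so their reads may be divided. The 5 gut markers summed to 77.7 FPKM in TCDD fish and 42.0 FPKM in DMSO fish (1 of 2 tested rose), with fabp2 at 0 in each group. The 10 eye and brain markers summed to 361 FPKM in TCDD fish and 462 FPKM in DMSO fish (0 of 4 tested called), with 3 higher and 6 lower in TCDD fish. Most of that sum came from the 4 tested genes, mbpa, snap25a, gfap and elavl3. The largest, mbpa, had 171 FPKM in TCDD fish and 251 FPKM in DMSO fish. These 4 are general neural genes, so the sum does not by itself show tissue carried over from eye or brain. Among the lower, the untested crygn2 was listed at 0 in TCDD fish and 25.3 FPKM in DMSO fish, and the untested cryba1b had 2.54 and 25.3 FPKM. Among the higher, snap25a had 92.7 FPKM in TCDD fish and 47.0 FPKM in DMSO fish (q = 0.0788, authors' deposited table). The 3 erythrocyte markers summed to 17.3 FPKM in TCDD fish and 18.3 FPKM in DMSO fish with none tested, and the 1 adipocyte marker, LPL, had 539 FPKM in TCDD fish and 369 FPKM in DMSO fish (q = 0.221, authors' deposited table). Their part in the members' levels was not tested.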

How the data were processed

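Per the labels' protocols, polyA RNA from 2 µg of total RNA (integrity number at least 9.9) was sequenced on the Ion Torrent PGM. Bowtie2 2.2.6 and DESeq2 appear without a role in the submitters' processing notes, while the file header has the layout of a Cuffdiff gene test. No source used here names the genome build or the annotation, or says how libraries were combined. The authors deposited 1 value per gene and group, read as FPKM from that layout, together with a test statistic (a score), a q-value and a p-value. Benjamini-Hochberg adjustment of the deposited p-values over the 3286 tested genes, by a function checked on simulated p-values, gave the deposited q-values to within 5.11e-07. Column totals were 1108805 in TCDD and 1315189 in DMSO.

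Fold changes of TCDD over DMSO were computed from the deposited FPKM without a pseudocount. A tested gene at 0 in 1 group has no fold change and was counted as an infinite change in medians. The authors' q at 0.05 is the only test, since no value per library is at hand, and no SD or interval is given. Its use of the 3 libraries per group is not described, so p-values may reflect technical spread alone. Lists were matched by symbol without case and copy suffix. Named were every member, every called gene of the 7 pathway lists, up to 3 tested genes of a list without a call, and the 2 nearest called genes of each called member. Other names were chosen after their values were seen. Members and lists were chosen with earlier results of these data known. Other thresholds, a minimum mean of 50 FPKM, other scalings and pseudocounts of 1 and 0.1 were tried. Promoter and protein sequences were not used here. Python 3.11.15, numpy 2.4.6, pandas 2.3.3, scipy 1.17.1 and matplotlib 3.10.9 were used.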

Additional observations from a re-analysis of the deposited data

Results flagged for a closer look

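The authors' deposited table also holds FPKM values for genes that were not tested. Members and pathway genes among these were singled out where their mean reached the lowest tested mean of 13.7 FPKM and the TCDD value was at least 1.5 times the DMSO value, limits chosen after seeing the data. Of 26 such untested genes at that level, 5 (19.2%) met the limit, against 22.2% of all 2743 untested genes at that level, so the share is near the background. The receptor ahr2 (1 of 2) had 18.9 FPKM in TCDD fish and 10.3 FPKM in DMSO fish. The HSP90 gene hsp90aa1.2 had 26.0 FPKM in TCDD fish and 12.1 FPKM in DMSO fish, and the coactivator gene NCOA7 (2 of 2) had 20.9 FPKM in TCDD fish and 9.88 FPKM in DMSO fish. The ubiquitin ligase gene stub1, whose product acts on AHR and other HSP90 clients, had 19.6 FPKM in TCDD fish and 12.5 FPKM in DMSO fish, and the coactivator gene crebbpb had 18.0 FPKM in TCDD fish and 11.8 FPKM in DMSO fish. The mirrored limit was met by 1 of the 26 genes (3.85%), against 18.4% of all 2743 untested genes at that level. It was the HSP90 co-chaperone gene ptges3b, with 9.44 FPKM in TCDD fish and 21.5 FPKM in DMSO fish. None of these differences was tested.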

How the results depend on the processing

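The 3 calls among members held at q 0.01. An unadjusted p of 0.05 could not remove them, because a gene with q under 0.05 also has p under 0.05. Leaving out genes whose locus overlaps another (a setting chosen after seeing the data) could not either, because none of the 3 loci overlaps another. With genes of a mean of at least 50 FPKM only, 2 held and ahrrb, at a mean of 36.4 FPKM, fell under that minimum. By Bonferroni adjustment 0 held, because the smallest p the authors' test gave, 5e-05, becomes 0.164. The log2 fold changes of ahr2 (2 of 2), tiparp and ahrrb ran from 1.57 to 4.81 under other scalings and pseudocounts; these settings could not turn the direction of values of that size, and the authors' test could not be rerun on them. Scaling to equal totals adds 0.25 to every log2 fold change and turned arnt from -0.10 to 0.15 and arnt2 from -0.23 to 0.014. Of the 8 pathway genes that rose, 5 remained in number at q 0.01 and 0 by Bonferroni adjustment, and of the 2 that fell, 1 at a mean of at least 50 FPKM and 0 by Bonferroni adjustment. No paired analysis was possible because libraries have no values of their own in the table, and for the same reason no replicate could be left out. The planned description of promoter motifs and protein identity was not run. Depth is unknown, so what low levels such as that of ahr1b (2 of 2) could show is not known.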
